A study of Homo sapiens with 6 samples.

Results

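The clustered histone genes are the replication-dependent histone genes that lie in groups on a few chromosome arms. They were taken from the deposited table by their symbols, as the genes named HIST1H, HIST2H, HIST3H or HIST4H or carrying the newer H1, H2AC, H2BC, H3C or H4C names. This rule found 71 genes of 19727, all of them in the older naming. The level needed for testing, an average of 1 FPKM across all libraries, was reached by 36 of the 71, and 35 stayed below it. FPKM counts the fragments of a gene per kilobase of transcript and relative to the library's total, so it corrects for length and levels of different genes can be set side by side.

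RNA was measured in DU145, an established human prostate cancer cell line, in 3 libraries with lentivirus-circCSPP1 (OE, labelled as circCSPP1 overexpression) and 3 with lentivirus-NC (NC, labelled as normal genotype). circCSPP1 is a circular RNA made from exons of CSPP1, and the study asked what its overexpression does to prostate cancer cells. Both groups were stable lines made with lentivirus and selected with puromycin, so the NC cells also carry a vector, and each group stands on 1 vector. Nothing in the sources says that the 3 libraries of a group came from separate cultures, so the p-values measure the spread between these libraries, which may be technical. The RNA was selected for poly(A) tails before sequencing, which bears directly on histone genes.

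CSPP1, the gene that circCSPP1 comes from, had 9.11, 10.08 and 9.44 FPKM in the NC libraries and 14.47, 22.76 and 21.36 in the OE libraries (log2 fold change 0.94, adjusted p = 0.016 by limma with Benjamini-Hochberg adjustment). A gene value cannot separate the circular from the linear RNA. OE replicate 1 had the lowest CSPP1 of its group. Leaving it out raised the genes called across the whole table from 578 higher and 821 lower to 1620 and 1894. Many of the counts, medians and sums that follow, though not all, are therefore also given without it. As for the label of the cells, 5 of 6 epithelial markers (KRT8, KRT18, KRT19, EPCAM and CDH1) were present and KRT5 was under 1 FPKM, while the prostate secretory genes KLK2 and KLK3 were listed at 0 and CD3E of leukocytes and LUM of fibroblasts too. All 5 epithelial markers that were tested fell in OE, from a summed 2270 to 2360 FPKM in NC to 1050 to 1280 in OE. The collagen gene COL1A1, 1 of 4 fibroblast markers, was low at 2.60 to 4.06 FPKM in NC and fell as well, and the 3 endothelial and 4 leukocyte markers summed to 0.62 FPKM at most. In bulk RNA, fewer cells of a kind and less RNA per cell cannot be told apart. The part of this fall in the histone results was not tested.

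Replication-dependent histones package newly made DNA. Their genes have no introns in the coding part and are transcribed mainly in S phase, and most of their mRNAs end after a conserved stem-loop that is bound by SLBP rather than in a poly(A) tail. Some of the genes can also use a polyadenylation site further downstream, which gives a tailed mRNA in differentiated or slowly dividing cells, and such transcripts are the ones a poly(A) selection retains.

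The 3′ stem-loop was searched on the sense strand of the coding transcripts of GENCODE release 29, on GRCh38. It was found in 31 of the 71 genes (43.7%), against 34 of 19674 genes in all (0.173%), and 34 of the 71 had gene models that stop with the coding sequence, where it cannot be seen. The sequences are shown for genes the results turn on, because they carry the end that an untailed histone mRNA would have, and capitals mark the 16 bases of stem and loop.
HIST3H2A, chr1:228457364-228457389, minus strand: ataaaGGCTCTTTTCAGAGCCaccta
HIST1H2AC, chr6:26124664-26124689, plus strand: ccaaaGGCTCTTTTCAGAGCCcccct
HIST2H2AA3, chr1:149842218-149842243, minus strand: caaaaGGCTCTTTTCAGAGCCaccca
HIST1H2BC, chr6:26123467-26123492, minus strand: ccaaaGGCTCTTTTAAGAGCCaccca
HIST2H3C, chr1:149840687-149840712, minus strand: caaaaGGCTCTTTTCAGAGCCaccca
HIST2H4A, chr1:149833027-149833052, plus strand: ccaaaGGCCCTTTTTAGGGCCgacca
HIST1H4H, chr6:26285126-26285151, minus strand: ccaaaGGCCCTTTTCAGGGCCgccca
Of the 31 genes, 17 held the form seen in HIST3H2A, and these were 6 H2A, 8 H2B and 3 H3 genes. The form with an A in the loop, seen in HIST1H2BC, was in 3 H2B and 2 H3 genes. The H4 genes differed from all of these in the stem, with 5 carrying the HIST1H4H form and 3 the HIST2H4A form, and HIST1H2AG was alone with a form of its own.

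Promoters, taken as 250 bases before to 50 after the start in RefSeq on GRCh38.p14, were at hand for 66 of the 71 genes. They are shown for classes that share a motif, with the motif in capitals, because the classes below are compared with each other.
HIST1H2BK, octamer, chr6:27146878-27146907, minus strand: cttATTTGCATgagaggtcctatataaaaa
HIST1H2BO, octamer on the opposite strand, chr6:27893273-27893302, plus strand: ttaATGCAAATgagctttctgaatatacgt
HIST1H1C, H1 box, chr6:26056563-26056592, minus strand: aacAAACACAacttgggagcagcgcagcgg
Motifs were counted on both strands and by gene, so that a gene counted if any of its promoters held the motif. The octamer ATTTGCAT was in 77.8% of 18 H2B and 68.8% of 16 H2A genes. It was in 0 of the 13 H4 genes and in 2.19% of all 27305 genes of that table. The H1 box AAACACA was in 6 of 6 H1 promoters and in 6.94% of all. The CCAAT box was in every H1, H2A, H2B and H3 promoter that was matched but in 23.1% of the H4 promoters (39.7% of all), and TATAAA was in 68.2% of the histone promoters (14.0% of all). A match is a run of letters in this window and no measure of binding.

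Levels ranged over more than 2 orders of magnitude among the 36 genes that could be tested. HIST1H2BK, an H2B gene of the proximal HIST1 cluster, was by far the highest, with 495.06, 478.45 and 494.98 FPKM in NC and 500.25, 368.06 and 436.92 in OE, and alone held 34.5% to 48.6% of the summed histone FPKM of a library. The pair of H2A genes HIST2H2AA3 and HIST2H2AA4 and the linker histone gene HIST1H1C followed, with means of 92.1, 89.8 and 83.0 FPKM. The neighbours HIST2H2AA3, HIST2H2AA4 and HIST1H1C in this order did not differ beyond the spread of their libraries. The remaining 6 of the 10 highest genes were HIST2H4A, HIST1H2AC, HIST1H2BC, HIST2H4B, HIST1H2BD and HIST1H4H, at means of 60.8 down to 21.5 FPKM. All 71 genes together made up only 0.169% to 0.222% of the summed FPKM of a library. The genes nearest to the threshold were HIST1H2AL, with a mean of 1.01 FPKM, and HIST1H2BF, with 0.717 FPKM.

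**Figure D1:**
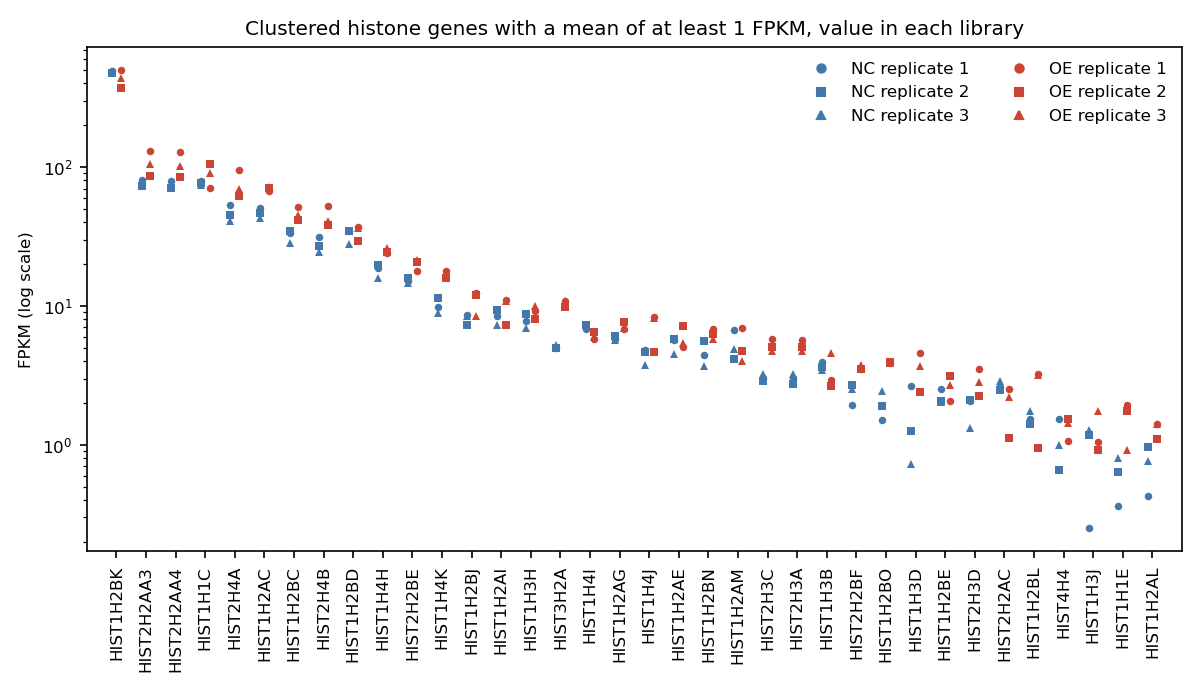
FPKM (log axis) of each of the 36 clustered histone genes that reached an average of 1 FPKM, in each of the 3 NC (blue) and 3 OE (red) libraries, ordered by mean. HIST1H2BK stands alone at the top, and in 19 of the 36 genes all red points lie above all blue points. This holds for 17 of the 33 genes that averaged 1 FPKM or more in both groups.

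The main comparison asked whether the clustered histone genes differed between OE and NC. More of their mRNA was found in the OE libraries for many of them: 10 of the 36 tested genes rose at an adjusted p under 0.05 (27.8%) and 0 fell, where over all 12322 tested genes 4.69% rose, 6.66% fell and 11.4% were called in either direction. The 10 were the H2A genes HIST3H2A and HIST1H2AC, the H2B genes HIST1H2BO and HIST1H2BC, the H3 genes HIST2H3A and HIST2H3C and the H4 genes HIST1H4K, HIST2H4A, HIST2H4B and HIST1H4H. HIST2H3A and HIST2H3C are copies of each other, as are HIST2H4A and HIST2H4B over most of their models, so the 10 calls are not all independent. Copies are counted as separate genes here and below, and no count without them was made. The changes were moderate, with log2 fold changes of 0.44 to 0.92, and 0 of the 36 passed the study's own rule (an unadjusted p under 0.01 and a log2 fold change of at least 1.5 in size), which 0.195% of all tested genes passed. Of the 36 fold changes 32 were above 0 (88.9%), compared with 46.0% of all tested genes. Their median was 0.41, and that of all tested genes was -0.03. All 3 OE libraries lay above all 3 NC libraries in 19 of the 36 genes (52.8%) and in 16.0% of all tested genes. They lay below in 1 of the 36, HIST1H4I, and in 20.5% of all. Fold changes were computed on log2(FPKM + 1), which understates the change of low genes.

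The count of calls depended on single libraries. It fell to 2 when NC replicate 1, NC replicate 2, NC replicate 3 or OE replicate 3 was left out, and rose to 14, with 13 genes higher and 1 lower, without OE replicate 1. In these fits the calls over all genes moved the same way. Of all tested genes 1.16% to 1.59% were called higher in the first 4 of these fits, beside 5.56% to 5.88% of the histone genes, and 13.1% without OE replicate 1, beside 38.2%. Leaving out OE replicate 2 went differently. It gave 13 histone genes higher (38.2%), while 4.06% of all tested genes were called higher, below the 4.69% with all libraries. Without OE replicate 1 the 10 genes had log2 fold changes of 0.43 to 0.91. The median log2 fold change lay between 0.33 (without OE replicate 1) and 0.42 in these fits. Set against the NC mean of each gene, the median of the 36 genes was 0.50, 0.37 and 0.45 on the log2 scale in OE replicates 1, 2 and 3. In NC replicates 1, 2 and 3 it was 0.03, 0.00079 and -0.05, values that centre on 0 by construction because the NC mean was subtracted. These medians do not show the spread of single genes, and OE replicate 1 was the highest of all 6 libraries in 21 of the 36 genes.

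The genes that passed the filter only because they were high in OE had to be on the higher side. These were HIST1H1E, HIST1H2AL and HIST1H3J, each with an NC mean under 1 FPKM, and none of them was called in the main comparison. HIST1H1E was called after correction for GC content and length, after quantile normalization and without OE replicate 3. HIST1H2AL was called after quantile normalization. The counts given for those fits include them. The 33 genes averaging 1 FPKM or more in both groups held all 10 calls and had a median log2 fold change of 0.39.

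**Figure D2:**
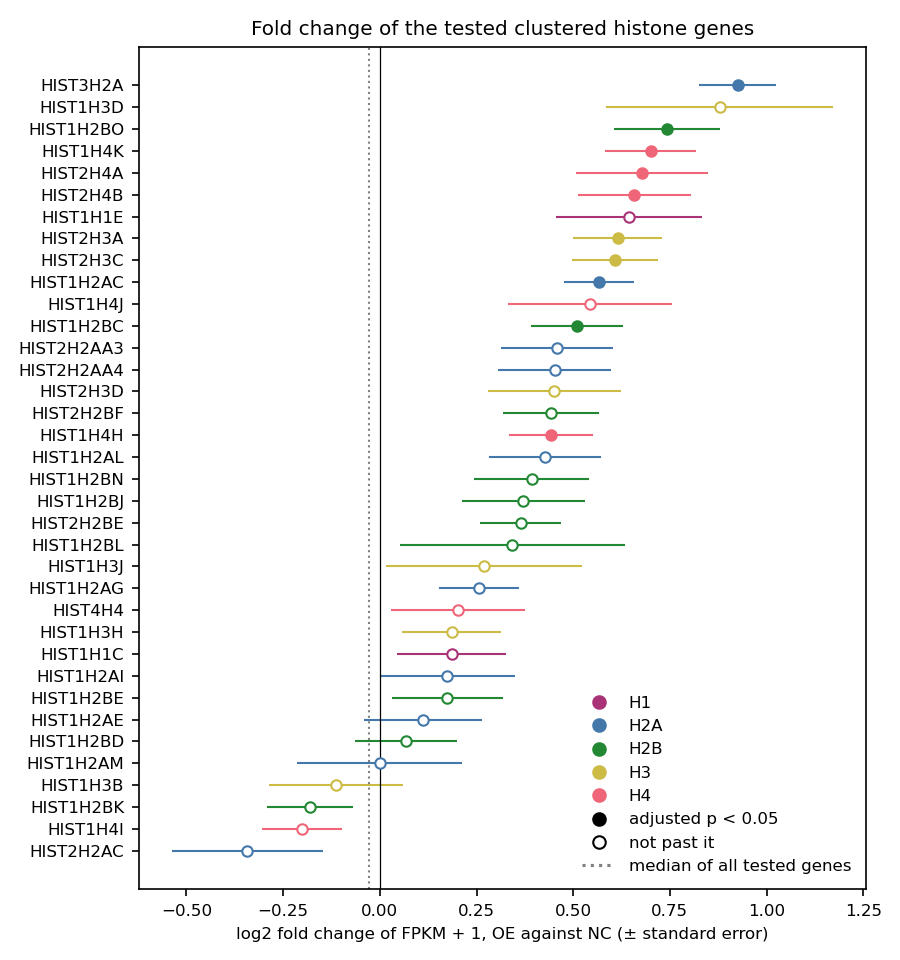
log2 fold change of FPKM + 1 (OE against NC) with its standard error for the 36 tested genes, coloured by histone class, with filled points at an adjusted p under 0.05 and the dotted line at the median of all 12322 tested genes. All 10 filled points lie at or above 0.44, and 4 genes lie below 0.

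H1 linker histones bind the DNA between nucleosomes. Of the 6 H1 genes 2 could be tested and 0 were called. HIST1H1C had 79.83, 76.99 and 74.41 FPKM in NC and 70.86, 105.52 and 90.32 in OE. OE replicate 1 was the lowest of all and OE replicate 2 the highest, so the groups overlapped (log2 fold change 0.19, SE 0.14, adjusted p = 0.44 by limma). Without OE replicate 1 it was called at 0.34 (adjusted p = 0.025). HIST1H1E was near the threshold at 0.36, 0.64 and 0.80 FPKM in NC and 1.92, 1.75 and 0.91 in OE, and all 3 OE values were above all NC values (adjusted p = 0.070 by limma). The other 4 stayed low, with HIST1H1B at 0.19 FPKM on average, the testis gene HIST1H1T at 0.0633, HIST1H1D at 0.0617 and HIST1H1A listed at 0 in every library.

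H2A and H2B pair as a dimer in the nucleosome core. HIST3H2A, the single H2A gene of the HIST3 group (chr1:228456979-228457873, minus strand, 1 exon), showed the highest fold change of the 36 on the log2(FPKM + 1) scale. HIST1H3D stood above it with smaller pseudocounts (1.28 against 1.04 at a pseudocount of 0.1), after rescaling to TPM and after quantile normalization. Its values were 4.96, 4.98 and 5.20 FPKM in NC and 10.79, 9.89 and 10.78 in OE, a rise from 5.05 ± 0.133 to 10.5 ± 0.517 FPKM (SD, n = 3). The libraries of each group lay close together and the groups were far apart (log2 fold change 0.92, SE 0.10, adjusted p = 0.0035 by limma). It shared no run of 100 bases with another gene, and it was called in all 18 alternative fits, leaving out any library included. The stem-loop shown above lies 390 nt before the end of its model.

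HIST1H2AC, the highest H2A gene outside the HIST2H2AA3 pair, rose as well (ENSG00000180573). It had 50.68, 46.88 and 43.12 FPKM in NC and 67.34, 70.21 and 71.84 in OE, with no overlap (log2 fold change 0.57, SE 0.09, adjusted p = 0.011 by limma). Its model runs 1114 nt past the stem-loop. HIST2H2AA3 had 81.06, 72.53 and 77.09 FPKM in NC and 130.27, 86.54 and 105.36 in OE. The OE values were all higher but were spread widely, and the adjusted p was 0.087 (log2 fold change 0.46). HIST2H2AA4 had nearly the same values. All 100-base runs of HIST2H2AA3 occur in HIST2H2AA4, and how the authors divided shared fragments is not given, so both values are uncertain. HIST2H2AC was on the other side, at 2.61, 2.48 and 2.88 FPKM in NC and 2.53, 1.11 and 2.21 in OE (log2 fold change -0.34, adjusted p = 0.30), where only OE replicate 2 stood well below the rest. In all, 2 of 10 tested H2A genes rose, and the class had a median log2 fold change of 0.34 (0.28 without OE replicate 1).

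Among the 10 tested H2B genes 2 rose, with a class median of 0.37 (0.31 without OE replicate 1). HIST1H2BO had 1.51, 1.91 and 2.44 FPKM in NC and 3.89, 3.92 and 3.89 in OE (log2 fold change 0.74, adjusted p = 0.017 by limma). The OE values almost coincided and the NC values were all lower, but at this level the NC libraries rest on about 17, 21 and 34 fragments. HIST1H2BC had 33.75, 34.39 and 28.40 FPKM in NC and 51.70, 41.59 and 45.46 in OE (log2 fold change 0.51, adjusted p = 0.035). Both groups were compact and did not overlap. With the replicate number as a block the adjusted p was 0.055. HIST1H2BD, a neighbour in the distal HIST1 cluster with a similar level, had 34.74, 34.64 and 27.99 FPKM in NC and 36.77, 29.12 and 36.38 in OE. OE replicates 1 and 3 were above every NC library and OE replicate 2 was among them (log2 fold change 0.07, adjusted p = 0.79).

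HIST1H2BK, the highest of all the genes, did not rise. Its OE values included both the highest and the lowest of the 6 libraries (log2 fold change -0.18, SE 0.11, adjusted p = 0.33 by limma). It fell by 0.29 without OE replicate 1 (adjusted p = 0.036) and by 0.28 after correction for GC content and length (adjusted p = 0.036). It shared 28.4% of its 100-base runs with H2BFS, a gene outside the rule at 0.993 ± 0.182 FPKM in NC and 0.547 ± 0.344 in OE (SD, n = 3). Because of its size HIST1H2BK set the sums. The summed FPKM of all 71 genes was 1082, 1030 and 1018 in NC and 1328, 1065 and 1190 in OE, a ratio of 1.15 ± 0.13 (1.08 without OE replicate 1). Without HIST1H2BK the sums were 587, 552 and 523 in NC and 828, 697 and 753 in OE, with no overlap and a ratio of 1.37 ± 0.14 (1.31 without OE replicate 1).

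**Figure D3:**
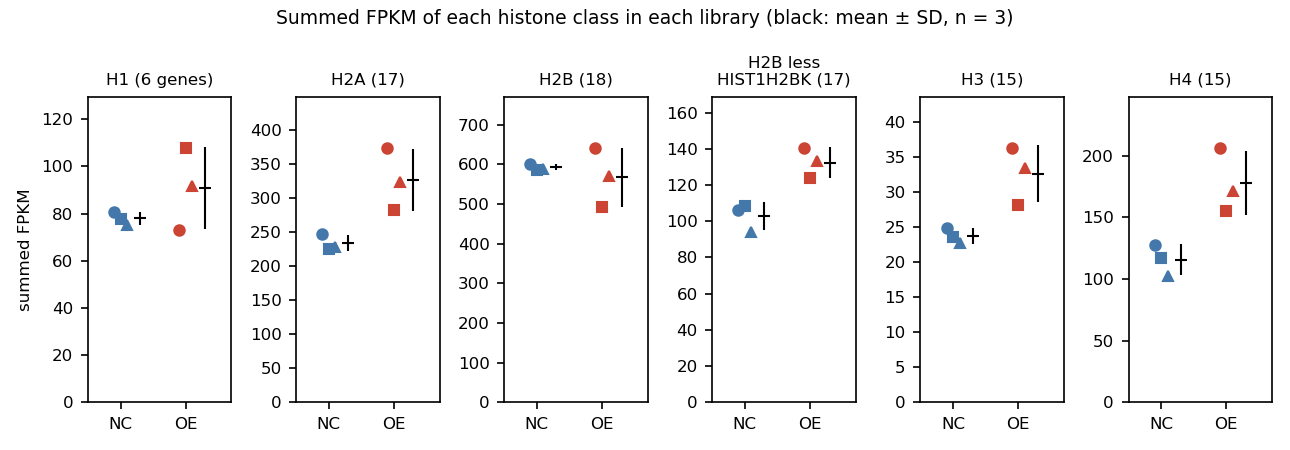
Summed FPKM of the genes of each histone class in each NC (blue) and OE (red) library, with the mean and SD of the 3 libraries in black and each axis from 0. All OE sums lie above all NC sums for H2A, H3 and H4 and for H2B less HIST1H2BK, and the groups overlap for H1 and for H2B with HIST1H2BK.

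H3 and H4 form the tetramer at the centre of the nucleosome. Of 7 tested H3 genes 2 rose, with a class median of 0.45 (0.33 without OE replicate 1). HIST2H3C had 3.05, 2.86 and 3.22 FPKM in NC and 5.75, 5.02 and 4.75 in OE (log2 fold change 0.61, adjusted p = 0.017 by limma). HIST2H3A followed it within 0.10 FPKM in each library (0.62, adjusted p = 0.018), and as the sequences of both models are identical over every 100-base run, these amount to 1 observation. HIST1H3D had the second highest fold change at a pseudocount of 1, and the highest standard error, at 2.64, 1.26 and 0.73 FPKM in NC and 4.58, 2.38 and 3.69 in OE. The lowest OE library was below the highest NC library (log2 fold change 0.88, SE 0.29, adjusted p = 0.098). With the replicate number as a block the adjusted p was 0.044. All of its sequence is contained in the annotated read-through gene AL031777.3. The H3 sum rose from 23.8 ± 1.09 to 32.7 ± 4.08 FPKM (SD, n = 3) without overlap, a ratio of 1.38 (1.30 without OE replicate 1).

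The H4 genes held the most calls, with 4 of 7 tested genes higher and a class median of 0.54 (0.47 without OE replicate 1). HIST2H4A had 53.06, 45.00 and 40.62 FPKM in NC and 94.64, 62.32 and 69.06 in OE (log2 fold change 0.68, SE 0.17, adjusted p = 0.044 by limma, and 0.50 without OE replicate 1). HIST2H4B had 31.13, 26.93 and 24.26 in NC and 52.58, 38.52 and 41.05 in OE (0.66, adjusted p = 0.030). OE replicate 1 was well above the others in both, and neither is independent of the other, because all 100-base runs of HIST2H4A lie in HIST2H4B. HIST1H4K rose from 9.78, 11.41 and 8.95 FPKM to 17.69, 15.84 and 17.13 (0.70, adjusted p = 0.013). Its whole coding sequence is repeated in HIST1H4J, which had 4.82, 4.63 and 3.74 FPKM in NC and 8.27, 4.62 and 8.23 in OE, so the split between these is uncertain. HIST1H4H, which shared no such run, had 18.77, 19.61 and 15.95 FPKM in NC and 23.92, 24.58 and 26.16 in OE (0.44, adjusted p = 0.041, and 0.088 with the replicate number as a block). In contrast, HIST1H4I had 6.82, 7.32 and 7.26 FPKM in NC and 5.77, 6.53 and 5.94 in OE. It was the 1 gene of the 36 whose OE libraries all lay below, at a log2 fold change of -0.20 (adjusted p = 0.25). The H4 sum went from 116 ± 12.7 to 178 ± 25.8 FPKM (SD, n = 3), a ratio of 1.54 (1.41 without OE replicate 1).

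By position, 55 genes belong to the HIST1 group on chromosome 6, 12 to HIST2 and 3 to HIST3 on chromosome 1, and 1 to HIST4 on chromosome 12. The HIST2 genes were the more expressed, with 10 of 12 reaching 1 FPKM compared with 24 of 55 in HIST1. In HIST2, 4 of 10 tested genes were called and 9 of 10 had OE above NC throughout, and in HIST1 5 of 24 were called and 9 of 24 had OE above NC. Of all tested genes 4.69% were called higher and 16.0% had OE above NC. The HIST2 calls come from HIST2H4A, HIST2H4B, HIST2H3A and HIST2H3C, which are copies in pairs. The 9 genes also include the pair HIST2H2AA3 and HIST2H2AA4. The counts of the groups were therefore not tested against each other.

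Gene models differed in how far they extend. Of 23 genes whose model runs over 60 nt past the stem-loop, 16 were tested and 8 rose, with a median log2 fold change of 0.44. Among the 8 are the copies HIST2H3A with HIST2H3C and HIST2H4A with HIST2H4B. Of 8 genes with a stem-loop transcript that ends within 60 nt of it 7 were tested and 0 were called. All 7 fold changes were positive, with a median of 0.34, and HIST2H2AA3 and HIST2H2AA4 among them were called after correction for GC content and length. HIST1H2BD is counted here by the transcript that holds the stem-loop, with 39 nt after it, while its longest model has 2 exons and 789 nt. The difference between these groups was not tested. Of the 34 genes with a coding-only model 11 were tested, and 2 of them, HIST1H4K and HIST1H2BO, rose. A polyadenylation signal (AATAAA or ATTAAA) in the last 50 nt of a model was found for 22 genes, of which 18 were tested and 7 rose, and 18 of the other 49 were tested and 3 rose. These are descriptions of an annotation that may differ from the authors' one, and the ends of the transcripts in these cells were not measured. For the 9 genes widely described as having polyadenylated transcripts, 3 of 9 rose (HIST1H2AC, HIST1H2BC and HIST1H4H) and 0 fell. By promoter, 3 of the 10 called genes held the octamer, as did 11 of 25 tested genes that were not called.

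The 35 genes below 1 FPKM showed no common direction when taken 1 by 1, though their sum was higher in OE. The mean was higher in OE for 14, lower for 15, and 6 were listed at 0 in all libraries (HIST1H1A, HIST1H2AA, HIST1H2BA, HIST1H2AK, HIST1H3C and HIST1H4F). The sum of the 35 genes was 7.58, 5.94 and 7.57 FPKM in NC and 10.97, 8.27 and 8.89 in OE, with no overlap. This is 7.03 ± 0.944 FPKM in NC and 9.38 ± 1.41 in OE (SD, n = 3), a ratio of 1.33 (1.22 without OE replicate 1). The depth read from the low values was 28800000 to 36400000 fragments per library, at which 3 fragments on a gene of 400 nt are 0.206 to 0.26 FPKM, so most of these genes rest on a few fragments and differences among them were not detectable at this depth. HIST1H2AJ, at 0.61, 0.45 and 0.35 FPKM in NC and 0.72, 0.67 and 0.89 in OE, and HIST1H2AH, at 0.00, 0.18 and 0.42 in NC and 0.88, 0.74 and 0.53 in OE, were the 2 whose groups did not overlap, and they were named after their values were seen. How many of all genes below 1 FPKM separate in this way was not computed, so nothing is read from these 2.

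Genes that make, process and carry histones were compared next, to see whether they moved with the clustered genes. Of 18 genes for histone gene transcription and 3′ end processing 1 rose and 0 fell. This was YY1, a zinc finger transcription factor, with 122.99, 111.30 and 106.87 FPKM in NC and 147.09, 162.71 and 142.73 in OE (log2 fold change 0.40, adjusted p = 0.030 by limma). SLBP, which binds the stem-loop, had 82.57, 93.29 and 86.13 FPKM in NC and 81.28, 86.28 and 91.52 in OE (log2 fold change -0.02, adjusted p = 0.93). NPAT, the coactivator of histone gene transcription, had 6.37, 6.65 and 6.51 in NC and 4.94, 8.70 and 7.11 in OE (0.05, adjusted p = 0.89). Both overlapped fully between the groups.

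Of 15 genes of histone mRNA decay and 19 histone chaperones, 0 were called in either direction, with medians of -0.07 and -0.10. Without OE replicate 1 these medians were 0.07 and -0.02. Of 20 S phase genes 1 fell and 0 rose, with a median of -0.05 (-0.009 without OE replicate 1). It was TYMS, thymidylate synthase, at 178.52, 177.87 and 197.41 FPKM in NC and 144.91, 130.42 and 139.51 in OE (log2 fold change -0.41, adjusted p = 0.020 by limma). Replacement histones are for the most part made throughout the cell cycle from ordinary polyadenylated mRNAs, which was not checked for each gene of the list. Of 12 such genes 11 were tested, 0 were called and 9 had a positive fold change, at a median of 0.15 (0.14 without OE replicate 1). All 3 OE libraries lay above all 3 NC libraries for H1F0, H2AFV, H2AFX, H2AFY, H2AFY2, H2AFZ and H3F3B. The groups overlapped for CENPA, H1FX, H2AFJ and H3F3A. The summed FPKM of the replacement histones was 1430 to 1470 in NC and 1620 to 1680 in OE. A rise without overlap was therefore not particular to the clustered genes. Their highest were H2AFX (0.48, adjusted p = 0.057) and H1F0 (0.42, adjusted p = 0.083), named after their values were seen. Without OE replicate 1, 3 replacement histones rose, 2 processing genes rose, 1 decay gene fell, 2 chaperones rose and 1 fell, and 1 S phase gene rose and 2 fell. These are 14.5% of the 83 list genes tested, where 28.5% of all genes were called in that fit, and with all libraries 2.41% of the 83 were called beside 11.4% of all genes. Whether the clustered genes differed from any of these lists was not tested.

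**Figure D4:**
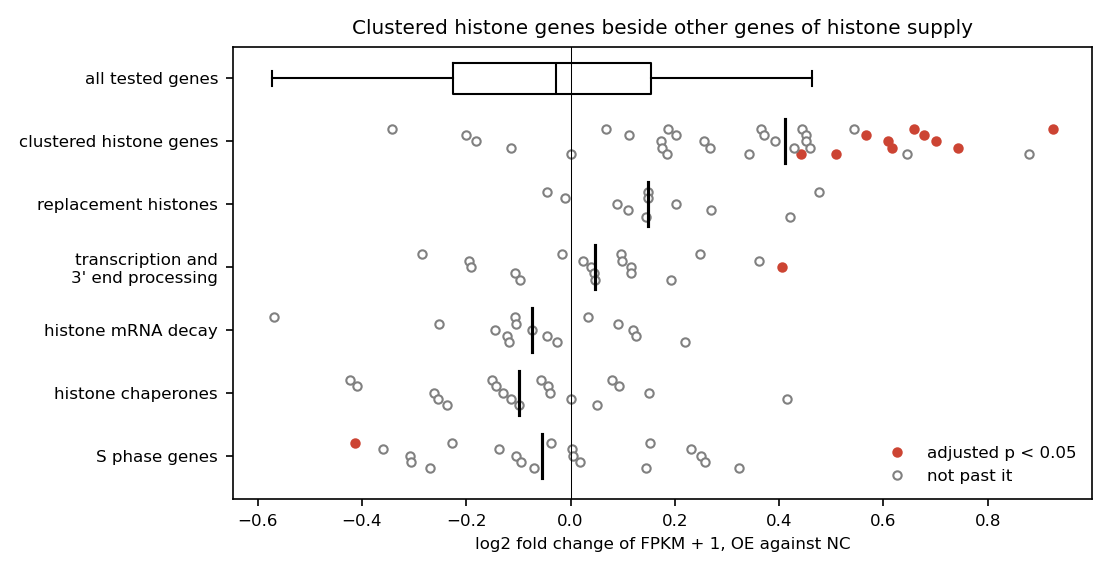
log2 fold change of FPKM + 1 (OE against NC) of each tested gene in 6 groups of genes, with the median as a black bar and red points at an adjusted p under 0.05, beside a box of all 12322 tested genes (box at the quartiles, whiskers at the 5th and 95th percentiles). The clustered histone genes have a median of 0.41, and the other groups have medians from -0.10 to 0.15.

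The family also stands apart in base composition and length. The tested histone genes had a median GC content of 57.7% and a median model length of 612.5 nt, against 49.3% and 3354 nt for all tested genes. After a loess correction of each library for GC content and length, their median log2 fold change was 0.35 and 17 were called, 16 higher and 1 lower (HIST1H2BK), including all 10 of the uncorrected fit. HIST1H1E, which passed the filter only through its OE values, was among the 16. Calls over all genes rose as well under this correction, to 12.1% higher and 16.7% lower, beside 44.4% and 2.78% of the histone genes. Without OE replicate 1 the median was 0.33, with 13 higher and 1 lower of 34 tested, and all 10 were again included. Their median fold change was lower in both of these fits than in the uncorrected one.

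**Figure D5:**
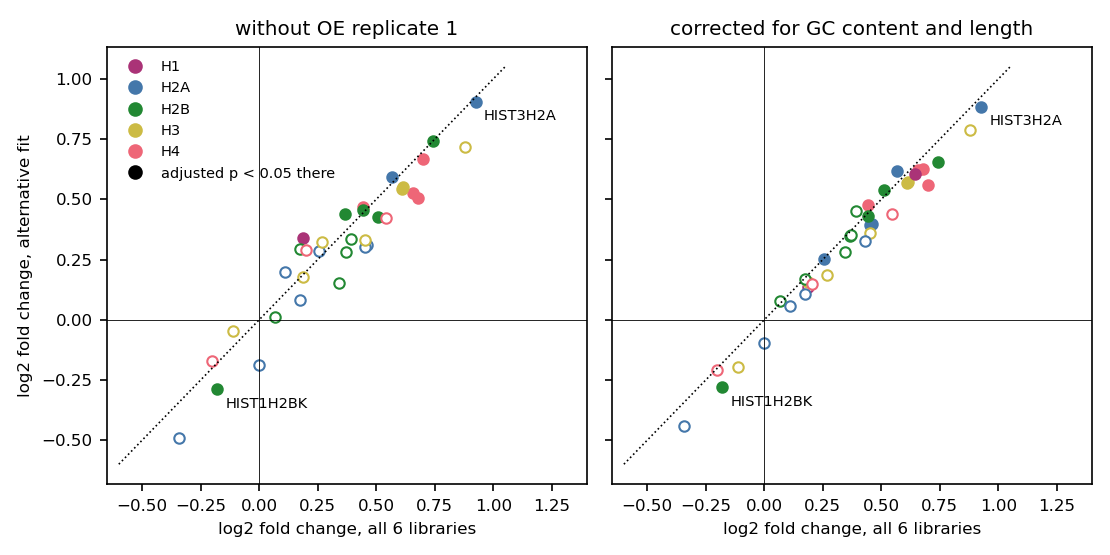
log2 fold change of the tested histone genes with all 6 libraries (x axis) against that without OE replicate 1 (left, 34 genes) and after correction for GC content and length (right, 36 genes), coloured by class and filled at an adjusted p under 0.05 in the alternative. Points follow the dotted line of equality, HIST3H2A is at the top in both, and HIST1H2BK is the filled point below 0.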

How the data were processed

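The authors selected poly(A) RNA, read it from both ends on an Illumina NovaSeq instrument and deposited FPKM values for 19727 genes in 6 libraries, rounded to 2 decimals. The build named in the labels is hg38. The aligner, counter and annotation are not given in the sources used here, nor is strand, so overlapping genes cannot be separated. No column of per-sample values was left unused. Members, lists and tests were chosen with earlier results of these data known. Values were taken to log2(FPKM + 1), and limma 3.58.1 under R 4.3.3 (trend, two-sided, no covariate) was applied to genes averaging 1 FPKM or more, with Benjamini-Hochberg adjustment over all 12322 genes. The fit was tested on simulated data. Named genes were those with an adjusted p under 0.05, the 10 highest, the 3 largest changes each way and the 2 nearest to 1 FPKM, with SLBP and NPAT. Others were named for a reason given in the text. Depth was the step at which low FPKM values of short genes fell on whole fragments (tolerance 0.15), as 66 of 68 low histone values did. Intervals of counting error were not computed from it. Gene models came from GENCODE release 29 and may differ from those of the authors. Figures were drawn with matplotlib 3.10.9.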

Additional observations from a re-analysis of the deposited data

How the results depend on the processing

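Against 10 clustered histone genes called, no filter on low values gave 6, no moderation of the variance 5 and the correction for GC content and length 17, and leaving out 1 library gave 2 to 14. Of all tested genes 5.89%, 6.77%, 28.8% and 2.38% to 28.5% were called in these fits, against 11.4%. The median log2 fold change was 0.17 with no filter, where 71 genes entered, and 0.33 to 0.42 with 1 library left out. The ratio of summed FPKM was 1.37 without HIST1H2BK and 1.08 to 1.21 with 1 library left out, an alternative chosen after seeing the data. Of the genes of histone supply 2 were called, compared with 4 after rescaling to TPM, 19 after the GC and length correction, 16 with this correction and the replicate block, and 0 to 12 with 1 library left out. These are 2.41% of 83 genes, then 4.82%, 22.9% and 19.3%, where 11.4%, 11.5%, 28.8% and 22.1% of all genes were called. The fold change of HIST1H2BD was -0.032 without NC replicate 3 (adjusted p = 0.93). The causes of these changes were not tested, and the fits with 1 library left out also hold fewer libraries. The other scalings, pseudocounts, stricter filter and robust fit gave 7 to 14 calls. The design text of the series calls the 3 samples of each group paired, without saying what the pairs share. The replicate numbers gave no sign of it in the data, since deviations from the group means correlated at 0.07, 0.0065 and 0.06 between same-numbered libraries, and NC replicate 2 correlated best with OE replicate 3. The replicate block gave 9 calls, 8 of them shared with the 10, as HIST1H2BC (adjusted p = 0.055) and HIST1H4H (0.088) were lost and HIST1H3D (0.044) was gained, beside 7.49% of all genes. FPKM holds no counts, so precision at low levels is limited by few fragments.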

Other observations

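Several histone genes outside the clusters were also low in DU145. The testis and germ line genes H2BFM, H2BFWT and H1FOO were listed at 0 in all 6 libraries, and H1FNT was at 0.30 FPKM on average in NC and 0.177 in OE. The short H2A variants H2AFB1, H2AFB2 and H2AFB3 stayed under 0.5 FPKM on average in both groups. These values were not tested.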
